A study of Homo sapiens with 13 samples.

Results

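This account covers 10 genes of the tumour necrosis factor (TNF) family in ovarian cancer cells: the ligands TNF, TNFSF10 and TNFSF15, and the receptors TNFRSF1A, TNFRSF9, TNFRSF10A, TNFRSF10B, TNFRSF11B, TNFRSF21 and FAS. They were taken by symbol from 62703 genes listed in each of 2 count tables, and all 10 were found in both. The RNA came from SKOV3 and OVCAR3, both human ovarian cancer cell lines. The study overexpressed RSF1, a histone-binding subunit of the RSF chromatin remodelling complex, in SKOV3 cells, and asked about its recognition of ubiquitinated histone H2A. There were 3 libraries of SKOV3 cells that overexpressed RSF1, 3 of SKOV3 cells that overexpressed RSF1delUAB, named as a deletion of the UAB part of RSF1, and 3 of SKOV3 cells with a control vector. In OVCAR3 there were 2 libraries of cells expressing a UAB peptide and 2 of cells with a scramble control, and both groups had received doxycycline at 2000 ng/mL for 6 days before harvest, so no library without doxycycline was compared. The labels do not say how the lines were selected, whether a group was 1 clone, or whether its libraries came from separate cultures, so p-values measure the spread between these libraries, which may be technical.

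Ligands of the TNF family are trimers on the cell surface, and some are released by proteases. They bind receptors of the TNF receptor superfamily on the same or neighbouring cells. Receptors with a death domain in their tail, among them FAS, TNFRSF1A and the TRAIL receptors, can assemble a complex of FADD and caspase-8 that starts apoptosis. The same ligands can instead recruit TRAF adaptors and ubiquitin ligases, which lead to NF-kappaB and the transcription of inflammatory genes. In ovarian cancer, TNF is known as a cytokine that tumour cells can make and respond to themselves, and TNFSF10 (TRAIL) as a ligand that can kill tumour cells.

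Promoters of the 4 genes with the widest differences between groups are shown because their start regions differ in the elements they hold. The sequences are the 250 bases before the gene start in RefSeq (GRCh38.p14), read 5′ to 3′ on the strand of the gene. They lie at chr6:31575315-31575564 (plus strand) for TNF, chr3:172523431-172523680 (minus strand) for TNFSF10, chr9:114792531-114792780 (minus strand) for TNFSF15 and chr1:7940840-7941089 (minus strand) for TNFRSF9. Capitals mark matches to TATAAA in TNF and TNFSF10, to the AP-1 motif TGANTCA in TNFSF15 and TNFRSF9, and to the NF-kappaB consensus, in 2 overlapping matches, in TNFRSF9.
TNF: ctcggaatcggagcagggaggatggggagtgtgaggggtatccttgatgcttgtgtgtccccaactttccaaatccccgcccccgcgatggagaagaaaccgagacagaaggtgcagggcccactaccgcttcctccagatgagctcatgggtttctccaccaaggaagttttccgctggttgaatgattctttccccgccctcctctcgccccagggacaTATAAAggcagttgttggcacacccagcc
TNFSF10: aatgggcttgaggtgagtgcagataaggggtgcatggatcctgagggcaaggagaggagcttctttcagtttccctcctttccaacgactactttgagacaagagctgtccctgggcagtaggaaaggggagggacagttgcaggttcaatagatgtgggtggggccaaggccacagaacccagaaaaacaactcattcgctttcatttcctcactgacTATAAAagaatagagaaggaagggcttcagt
TNFSF15: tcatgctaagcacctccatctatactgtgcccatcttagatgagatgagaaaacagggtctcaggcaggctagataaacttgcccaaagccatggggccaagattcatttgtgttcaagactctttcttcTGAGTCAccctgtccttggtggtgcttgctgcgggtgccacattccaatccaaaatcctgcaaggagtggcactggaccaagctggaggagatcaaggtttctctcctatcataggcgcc
TNFRSF9: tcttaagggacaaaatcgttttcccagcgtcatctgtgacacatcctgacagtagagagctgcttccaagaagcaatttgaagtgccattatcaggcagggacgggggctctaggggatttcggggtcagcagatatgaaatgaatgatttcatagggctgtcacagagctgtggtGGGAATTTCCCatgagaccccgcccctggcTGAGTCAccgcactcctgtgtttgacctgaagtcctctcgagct

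The TATAAA match began 29 bases before the start of TNF and 31 bases before that of TNFSF10. The AP-1 match of TNFSF15 began 120 bases before its start, and that of TNFRSF9 began 44 bases before its start, downstream of NF-kappaB matches beginning 74 and 73 bases before it. RefSeq promoters were searched for 7 of the 10 genes, in 9 windows. Promoters of TNFRSF10A, TNFRSF10B and TNFRSF11B, which lie on chromosome 8, were left out of the search. On both strands, an NF-kappaB match was present for 2 of the 7 genes (TNFRSF9 and FAS), an AP-1 match for 3 (TNFSF15, TNFRSF9 and FAS) and TATAAA for 2 (TNF and TNFSF10). Over 35116 promoter windows of the same length, 5.21% held an NF-kappaB match, 6.57% an AP-1 match and 10.7% TATAAA. These shares are per window, while the counts of the family are per gene, so they are not on the same footing. FAS had 3 windows, with its AP-1 match in 1 and its NF-kappaB match in another. A match is a stretch of letters and not a measured binding site. The deposited gene models of TNFSF15 and TNFRSF9 begin further upstream than these windows, so other transcripts of those genes start elsewhere.

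Total counts ran between 15194678 and 18748009 in SKOV3 libraries and between 18160558 and 24026993 in OVCAR3 libraries. RSF1 itself measured 630, 774 and 749 CPM (counts scaled to the size of the library) in RSF1 cells. It measured 459, 495 and 508 CPM in RSF1delUAB cells, and 42.1, 47.4 and 42.1 CPM in control cells. RSF1 cells exceeded RSF1delUAB cells without overlap (log2 fold change 0.56, edgeR adjusted p = 5.07e-06). Between these groups, the level of the construct and the missing UAB part cannot be told apart. RSF1 measured 786 and 585 CPM with the UAB peptide, against 563 and 706 CPM with the scrambled peptide, and these groups overlapped. SKOV3 and OVCAR3 both held epithelial markers. Their summed level in SKOV3 was 3819 to 4401 CPM with RSF1, 8667 to 9198 CPM with RSF1delUAB and 9188 to 9923 CPM in controls. The sum came mostly from ERBB2, while MUC16 was at 0 with RSF1delUAB. Single markers went both ways. Of 9 tested, 5 (WT1, KRT7, KRT8, CCNE1 and EPCAM) were called higher and 2 (ERBB2 and PAX8) lower with RSF1 over control. With RSF1delUAB over control 5 were called higher and 3 lower. Of all genes, 67.3% and 66.6% were called in these comparisons. Fibroblast markers summed to 51.9 to 53.8 CPM with RSF1, 120.0 to 131.8 CPM with RSF1delUAB and 6.28 to 7.29 CPM in controls, and all 5 of the 6 that could be tested rose in both overexpressing groups, with PDGFRB at 0 in RSF1delUAB and control cells. Endothelial markers summed to 0.697 to 1.00 CPM with RSF1, 0.676 to 0.923 CPM with RSF1delUAB and 5.35 to 7.62 CPM in controls. Myeloid markers summed to at most 1.68 CPM, T and NK cell markers to at most 0.753 CPM and B cell markers to at most 1.44 CPM in any SKOV3 library. The part of these marker differences in the results below was not tested, and in bulk RNA fewer cells of a type and less RNA per cell cannot be told apart.

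TNF, the cytokine that gives the family its name, was higher in RSF1 cells than in both other SKOV3 groups. It measured 22.6, 17.1 and 18.4 CPM in RSF1 cells, 3.29, 4.15 and 4.18 CPM in RSF1delUAB cells, and 2.11, 3.11 and 1.35 CPM in control cells. All 3 RSF1 libraries lay above every other SKOV3 library, and the RSF1delUAB libraries lay just above the controls. With edgeR's quasi-likelihood test and Benjamini-Hochberg adjustment over all 16735 genes tested, the log2 fold change of RSF1 over control was 3.14 (SE 0.20, adjusted p = 2.9e-11). On the same log2 scale RSF1delUAB over control gave 0.82 (SE 0.24, adjusted p = 0.00506), and RSF1 over RSF1delUAB gave 2.33 (SE 0.18, adjusted p = 2.48e-09). Both comparisons with controls share the same 3 control libraries.

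TNFSF10, which encodes TRAIL, the ligand of TNFRSF10A and TNFRSF10B, rose in both overexpressing groups to a like level. It measured 33.7, 32.1 and 27.8 CPM in RSF1 cells, 29.6, 31.5 and 26.4 CPM in RSF1delUAB cells, and 1.32, 1.32 and 1.10 CPM in controls. The overexpressing groups overlapped each other and lay far above the controls. The log2 fold change over control was 4.64 with RSF1 (SE 0.15, adjusted p = 1.11e-15) and 4.54 with RSF1delUAB (SE 0.15, adjusted p = 1.45e-15). Between RSF1 and RSF1delUAB the log2 fold change was 0.10, with a 95% interval of -0.11 to 0.30 (adjusted p = 0.473).

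TNFSF15, also called TL1A, is a ligand of the receptor TNFRSF25, and it was rare in SKOV3. It measured 1.11, 2.03 and 2.20 CPM in RSF1 cells, 0.0531, 0.173 and 0.123 CPM in RSF1delUAB cells, and 0.0661, 0 and 0 CPM in controls. Only the RSF1 libraries stood clear of the rest, with 84 counts in all, against 6 counts in RSF1delUAB and 1 count in control libraries. The depth-scaled ratio of RSF1 to control was 81.6, with an exact counting interval of 14.3 to 3262 (edgeR adjusted p = 6.74e-07). That of RSF1delUAB to control was 5.23, with an interval of 0.635 to 241 (edgeR adjusted p = 0.149), and that of RSF1 to RSF1delUAB was 15.6, with an interval of 6.87 to 43.7 (edgeR adjusted p = 1.09e-05). These intervals cover counting error only.

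TNFRSF11B (osteoprotegerin), a secreted decoy receptor for TRAIL and for RANKL, moved in opposite directions in the overexpressing groups. It measured 21.5, 21.0 and 16.3 CPM in RSF1 cells, 5.89, 6.23 and 7.13 CPM in RSF1delUAB cells, and 8.19, 9.27 and 9.42 CPM in controls. The 3 groups did not overlap, with RSF1 cells at the top and RSF1delUAB cells at the bottom. The log2 fold change was 1.13 for RSF1 over control (SE 0.13, adjusted p = 1.9e-07), -0.48 for RSF1delUAB over control (SE 0.14, adjusted p = 0.00571) and 1.61 for RSF1 over RSF1delUAB (SE 0.13, adjusted p = 6.7e-09).

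TNFRSF9 (4-1BB, CD137), a costimulatory receptor best known on activated T cells, was low in RSF1delUAB cells. It measured 5.08, 4.56 and 4.77 CPM in RSF1 cells, 1.22, 0.461 and 1.29 CPM in RSF1delUAB cells, and 5.81, 5.17 and 7.29 CPM in controls. The RSF1 libraries lay just under the lowest control, and the RSF1delUAB libraries lay well under both. TNFRSF9 fell with RSF1delUAB (log2 fold change -2.61, SE 0.26, adjusted p = 2.96e-08), and RSF1 exceeded RSF1delUAB by 2.27 (SE 0.27, adjusted p = 1.17e-06). For RSF1 over control the log2 fold change was -0.34, with a 95% interval of -0.78 to 0.10 (adjusted p = 0.159). Of the 6 T and NK cell markers, CD3D and CD3E were at 0 in all SKOV3 groups. CD8A and NKG7 had counts in every SKOV3 group, and CD2 and GNLY only in RSF1 cells.

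**Figure D1:**
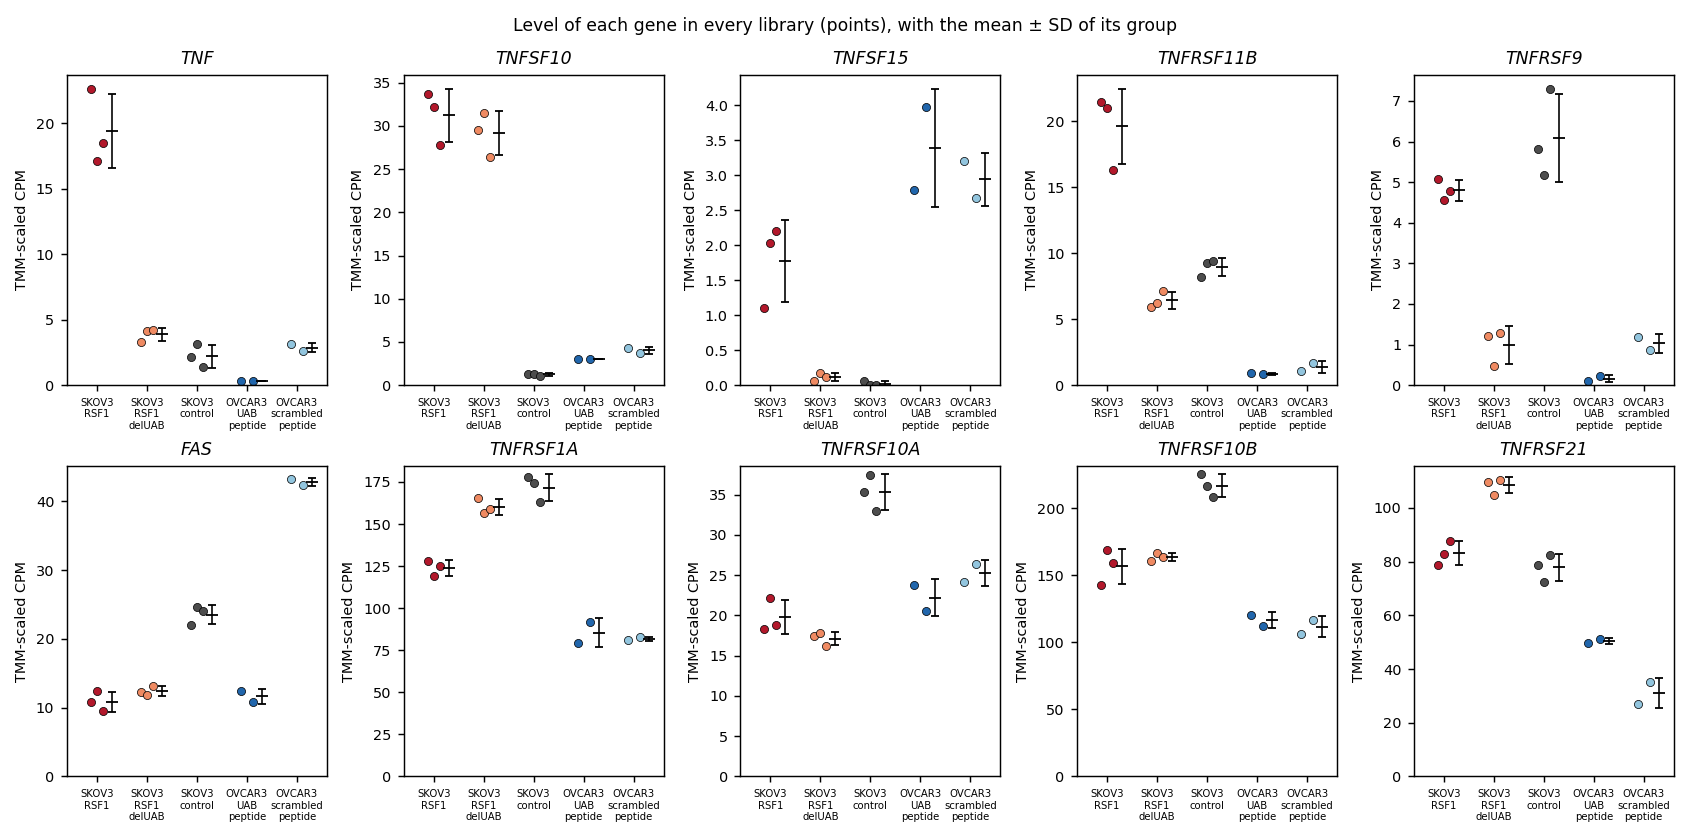
Level of the 10 genes in every library, in TMM-scaled CPM on axes that start at 0, with the mean and SD of each group beside its points (n = 3 in each SKOV3 group, n = 2 in each OVCAR3 group). TNF stood at 17.1 to 22.6 CPM in RSF1 cells, against 3.29 to 4.18 CPM in RSF1delUAB cells and 1.35 to 3.11 CPM in controls, while TNFSF10 was high in both overexpressing groups.

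The death receptors FAS, TNFRSF10A and TNFRSF10B were lower in both overexpressing groups than in controls. FAS, the receptor of FAS ligand, measured 10.8, 12.4 and 9.48 CPM in RSF1 cells, 12.3, 11.8 and 13.2 CPM in RSF1delUAB cells, and 22.0, 24.6 and 24 CPM in controls. TNFRSF10A (DR4), a TRAIL receptor, measured 18.3, 22.2 and 18.8 CPM with RSF1, 17.4, 17.8 and 16.2 CPM with RSF1delUAB, and 35.3, 37.5 and 33.0 CPM in controls. Both genes were at about the same level in the overexpressing groups, and every control library lay above them. The log2 fold change of FAS was -1.11 for RSF1 over control (SE 0.11, adjusted p = 3.02e-08) and -0.92 for RSF1delUAB over control (SE 0.11, adjusted p = 3.03e-07). For TNFRSF10A the log2 fold change was -0.84 for RSF1 (SE 0.10, adjusted p = 1.95e-07) and -1.04 for RSF1delUAB (SE 0.10, adjusted p = 8.55e-09).

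TNFRSF10B (DR5), the other TRAIL receptor with a death domain, measured 143, 169 and 159 CPM in RSF1 cells, 161, 167 and 163 CPM in RSF1delUAB cells, and 226, 217 and 208 CPM in controls. Its control libraries again lay above all others, by less than for FAS. The log2 fold change over control was -0.47 with RSF1 (SE 0.07, adjusted p = 4.6e-06) and -0.41 with RSF1delUAB (SE 0.07, adjusted p = 2.51e-05). None of the 3 receptors was called between RSF1 and RSF1delUAB: the log2 fold change was -0.19 for FAS (95% interval -0.43 to 0.06, adjusted p = 0.22), 0.21 for TNFRSF10A (-0.004 to 0.42, adjusted p = 0.115) and -0.06 for TNFRSF10B (-0.20 to 0.08, adjusted p = 0.52). Without the first RSF1 library, TNFRSF10A passed this comparison (log2 fold change 0.26, adjusted p = 0.0446). TNFRSF10A and TNFRSF10B are close paralogs of each other and of the decoys TNFRSF10C and TNFRSF10D, so reads could be split among them. TNFRSF10A shares 224 and 266 exon bases with 2 antisense transcripts, and TNFRSF10B shares 377 with RHOBTB2 on the opposite strand. FAS shares 1899 exon bases with an unnamed antisense gene, 387 with ACTA2 on the opposite strand and 166 with STAMBPL1 on the same strand. Whether counting used strand is not given in the sources used here, and strand would not separate FAS from STAMBPL1.

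TNFRSF1A, the main receptor of soluble TNF, measured 128, 119 and 125 CPM in RSF1 cells, 165, 156 and 159 CPM in RSF1delUAB cells, and 178, 174 and 163 CPM in controls. RSF1 cells were the lowest, and RSF1delUAB cells overlapped the controls. TNFRSF1A fell in RSF1 cells against control by 0.47 on the log2 scale (SE 0.06, adjusted p = 2.07e-06) and against RSF1delUAB by 0.37 (SE 0.06, adjusted p = 0.000109), while RSF1delUAB over control was -0.10 (adjusted p = 0.178).

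TNFRSF21 (DR6), a death domain receptor known from neurons and lymphocytes, measured 78.8, 82.7 and 87.8 CPM in RSF1 cells, 110, 105 and 110 CPM in RSF1delUAB cells, and 78.6, 72.5 and 82.4 CPM in controls. The RSF1delUAB libraries lay above both other groups, which overlapped. TNFRSF21 rose with RSF1delUAB over control (log2 fold change 0.48, SE 0.07, adjusted p = 5.59e-06) and was lower in RSF1 than in RSF1delUAB cells (-0.38, SE 0.07, adjusted p = 0.000195), and RSF1 over control was 0.09 (adjusted p = 0.249).

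Counted together, 4 of the 10 genes rose and 4 fell in RSF1 against control cells, where 67.3% of all genes tested were called in either direction, 34.3% higher and 32.9% lower. The groups did not overlap for 9 of the 10, beside 69% of all genes. In RSF1delUAB against control cells 3 rose and 5 fell, beside 66.6% of all genes called, 34.5% higher and 32.1% lower. There the groups did not overlap for 8 of the 10, beside 72.9% of all genes. In RSF1 against RSF1delUAB cells 4 rose and 2 fell, beside 38.6% of all genes called, 18.5% higher and 20.2% lower. For 7 of the 10 those groups did not overlap, beside 46.9% of all genes. With 8 of 10 called against control in each comparison, the share of the family genes was near that of all genes. When only differences beyond 1.5-fold were tested, TNFRSF1A and TNFRSF10B were no longer called in RSF1 against control cells, and TNF, TNFRSF10B, TNFRSF11B and TNFRSF21 no longer in RSF1delUAB against control cells. The same test ended the calls of TNFRSF1A and TNFRSF21 between RSF1 and RSF1delUAB.

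**Figure D2:**
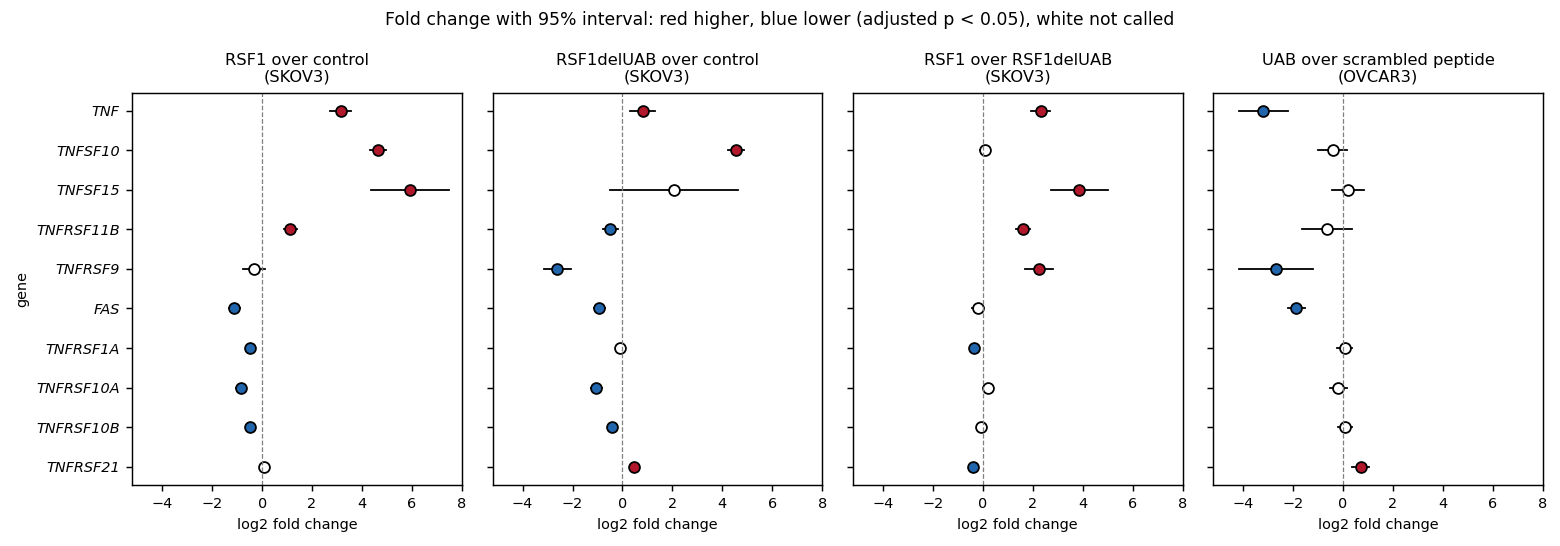
Log2 fold change of the 10 genes in 4 comparisons, each with its 95% interval; red is called higher, blue called lower and white not called at an adjusted p of 0.05. TNFSF10 lay at 4.64 and 4.54 over control in RSF1 and RSF1delUAB cells and at 0.10 between them, while TNF lay at 3.14, 0.82 and 2.33; the fitted folds of TNFSF15 over control rest on 1 control count.

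In OVCAR3, TNF, FAS and TNFRSF9 were lower and TNFRSF21 was higher with the UAB peptide. TNF measured 0.294 and 0.327 CPM with the UAB peptide, against 3.12 and 2.63 CPM with the scrambled peptide. The groups were far apart, and the log2 fold change was -3.19 (SE 0.46, adjusted p = 0.000394 over 18359 genes tested, edgeR). FAS measured 12.4 and 10.9 CPM with the UAB peptide, against 43.3 and 42.4 CPM with the scrambled peptide. Neither group's range came near the other, and FAS fell by 1.87 on the log2 scale (SE 0.16, adjusted p = 3.79e-06).

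TNFRSF9 measured 0.0979 and 0.218 CPM with the UAB peptide, against 1.19 and 0.863 CPM with the scrambled peptide. These few reads gave a log2 fold change of -2.68 (SE 0.69, adjusted p = 0.0222). The call was lost without the first UAB library (log2 fold change -2.20, adjusted p = 0.123), without the first scrambled library (-2.43, adjusted p = 0.238), in DESeq2 (-2.73, adjusted p = 0.0552) and in the test against a fold of 1.5 (adjusted p = 0.0811). TNFRSF21 measured 49.8 and 51.2 CPM with the UAB peptide, against 27.0 and 35.1 CPM with the scrambled peptide. The groups did not overlap, and TNFRSF21 rose by 0.70 log2 units (SE 0.15, adjusted p = 0.00886), a call lost without the first scrambled library (0.52, adjusted p = 0.112) and in the test against a fold of 1.5 (adjusted p = 0.774).

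The other 6 genes were not called in OVCAR3. TNFSF10 measured 3.03 and 3.00 CPM with the UAB peptide, against 4.31 and 3.75 CPM with the scrambled peptide (log2 fold change -0.42, 95% interval -1.0 to 0.17, adjusted p = 0.373). TNFSF15 measured 2.79 and 3.98 CPM with the UAB peptide, against 3.20 and 2.67 CPM with the scrambled peptide, more than in any SKOV3 library, although the tables were scaled separately and the lines were not tested against each other. TNFRSF11B was low, at 0.930 and 0.817 CPM with the UAB peptide, against 1.07 and 1.68 CPM with the scrambled peptide (log2 fold change -0.65, 95% interval -1.66 to 0.36, adjusted p = 0.428). The 95% intervals of the log2 fold changes of TNFRSF1A (-0.23 to 0.35), TNFRSF10A (-0.52 to 0.14) and TNFRSF10B (-0.22 to 0.35) were narrower and all held 0. In all, 1 gene rose and 3 fell, beside 10.9% of all genes called, 5.45% higher and 5.46% lower. The groups did not overlap for 7 of the 10, beside 54.1% of all genes. Myeloid markers summed to 1.42 to 2.10 CPM with the UAB peptide, against 6.83 to 8.28 CPM with the scrambled peptide, mostly CD14 at 1.03 and 0.981 CPM, against 5.21 and 7.38 CPM. CD68 was at 0 in both OVCAR3 groups, AIF1 and ITGAM were at 0 with the UAB peptide, and 1 of the 2 myeloid markers tested was called lower. Endothelial markers summed to 16.6 to 22.7 CPM with the UAB peptide, against 11.7 to 14.3 CPM with the scrambled peptide, and KDR was called higher. Fibroblast markers summed to 42.9 to 54.7 CPM with the UAB peptide, against 49.9 to 50.3 CPM with the scrambled peptide, with 2 of 4 tested markers (LUM, at 0 with the UAB peptide, and COL1A2) called lower. Epithelial markers summed to 8372 to 8884 CPM with the UAB peptide, against 8196 to 8266 CPM with the scrambled peptide, with WT1 and MUC16 called higher and KRT7 and MSLN lower. The part of these markers in the OVCAR3 results was not tested.

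Levels of different genes were compared per exon length, as RPKM, which divides CPM by the exon length in kilobases. In control cells the order began with TNFRSF10B at 43.3 ± 1.73 and TNFRSF1A at 40.8 ± 1.86 RPKM (SD, n = 3), whose ranges overlapped, followed by TNFRSF21, TNFRSF10A and TNFRSF11B at 21.7, 12.1 and 3.57 RPKM. TNF, TNFRSF9 and FAS stood next at 1.31, 0.958 and 0.802 RPKM, with overlap from TNF to TNFRSF9 and from TNFRSF9 to FAS, above TNFSF10 at 0.363 RPKM and TNFSF15 at 0.00283 RPKM. TNFSF10 was thus next to last in control cells. It ranked at position 4 in RSF1delUAB cells, at 8.48 ± 0.747 RPKM, and at position 5 in RSF1 cells, at 9.07 ± 0.890 RPKM (SD, n = 3).

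TNF ranked at position 4 in RSF1 cells, at 11.6 ± 1.70 RPKM, and at position 7 in RSF1delUAB cells, at 2.31 ± 0.301 RPKM, where it overlapped TNFRSF11B (SD, n = 3). In RSF1 cells TNFRSF10B overlapped TNFRSF1A, and TNFSF10, TNFRSF11B and TNFRSF10A overlapped in turn, while in RSF1delUAB cells TNFRSF1A, TNFRSF10B and TNFRSF21 stood apart in that order. In OVCAR3, TNF ranked at position 9 with the UAB peptide at 0.185 ± 0.0140 RPKM and at position 5 with the scrambled peptide at 1.71 ± 0.204 RPKM (SD, n = 2). TNFRSF10B and TNFRSF1A led in both OVCAR3 groups. The deposited exon length of FAS, 29313 bases, is the longest of the 10 and lowers its RPKM.

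**Figure D3:**
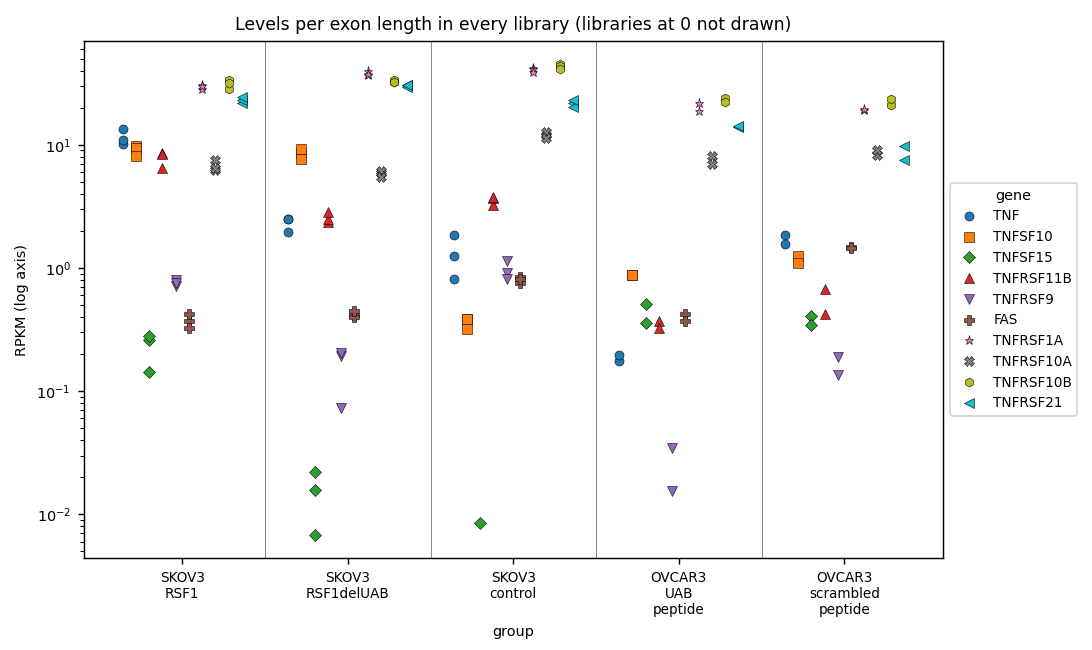
RPKM of the 10 genes in every library of the 5 groups, on a log axis; each point is 1 library and libraries at 0 are not drawn. TNFRSF10B, TNFRSF1A and TNFRSF21 stayed at 7 RPKM or more in every group, while TNF, TNFSF10, TNFSF15, TNFRSF9 and TNFRSF11B spread over more than a decade of RPKM between groups.

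Of 13 measured genes that TNF is known to induce in many cells, all 13 rose in RSF1 against control cells. Their median log2 fold change was 1.95, beside 0.02 for all genes tested, of which 34.3% were called higher. The same 13 were higher in RSF1 than in RSF1delUAB cells (median log2 fold change 2.02, all genes 0.0017), beside 18.5% of all genes called higher. These 13 were also the number called higher with any single library left out. Without any RSF1 library in turn, or without the third RSF1delUAB library, 1 further gene of the list passed the filter and was called lower. In RSF1delUAB against control cells 6 rose, 5 fell and 2 were not called, with a median of -0.01. There 34.5% of all genes were called higher and 32.1% lower. IL6, an inflammatory cytokine, measured 52.2, 49.8 and 45.1 CPM in RSF1 cells, 1.27, 2.31 and 3.14 CPM in RSF1delUAB cells, and 0.594, 1.19 and 0.322 CPM in controls. CXCL8, a neutrophil chemokine, measured 382, 354 and 257 CPM in RSF1 cells, 18.0, 16.7 and 19.6 CPM in RSF1delUAB cells, and 59.1, 58.2 and 67.4 CPM in controls. RSF1 cells were highest for both, while RSF1delUAB cells lay above the controls for IL6 and below them for CXCL8.

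CXCL8 fell with RSF1delUAB by 1.77 on the log2 scale (SE 0.12, adjusted p = 1.21e-10), as did CXCL1, a related chemokine (-0.93, adjusted p = 7.56e-09), and TNFAIP3, the ubiquitin-editing inhibitor A20 (-0.97, adjusted p = 4.04e-09). SOD2, the mitochondrial superoxide dismutase, rose with RSF1delUAB by 0.93 log2 units (adjusted p = 7.65e-12), and ICAM1, an adhesion molecule, by 2.76 (adjusted p = 8.38e-07). CCL20, a chemokine for lymphocytes, was at 34.1, 33.4 and 28.9 CPM with RSF1, 0.106, 0.692 and 0.369 CPM with RSF1delUAB, and 0.661, 0.729 and 0.580 CPM in controls. Its RSF1delUAB libraries overlapped the controls. TNFAIP6, a secreted hyaluronan-binding protein, had 193 counts with RSF1 and 1 count in controls, a depth-scaled ratio of 187.5 with a counting interval of 33.3 to 7445.

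In OVCAR3, 10 of 13 measured genes of this list fell with the UAB peptide and 3 (TNFAIP2, TNFAIP8 and SOD2) were not called. The median of the 13 was -1.08, beside 0.01 for all genes, of which 5.46% were called lower. CXCL1 measured 27.8 and 31.7 CPM with the UAB peptide, against 188 and 193 CPM with the scrambled peptide (log2 fold change -2.68, SE 0.14, adjusted p = 7.97e-08). CXCL8 measured 3.33 and 4.74 CPM with the UAB peptide, against 34.9 and 32.4 CPM with the scrambled peptide (log2 fold change -3.07, SE 0.20, adjusted p = 4e-07). Neither gene's groups overlapped. CCL2, a monocyte chemokine that was too low to test in SKOV3, measured 2.06 and 3.11 CPM with the UAB peptide, against 25 and 14.6 CPM with the scrambled peptide (log2 fold change -2.94, SE 0.28, adjusted p = 1.15e-05).

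**Figure D4:**
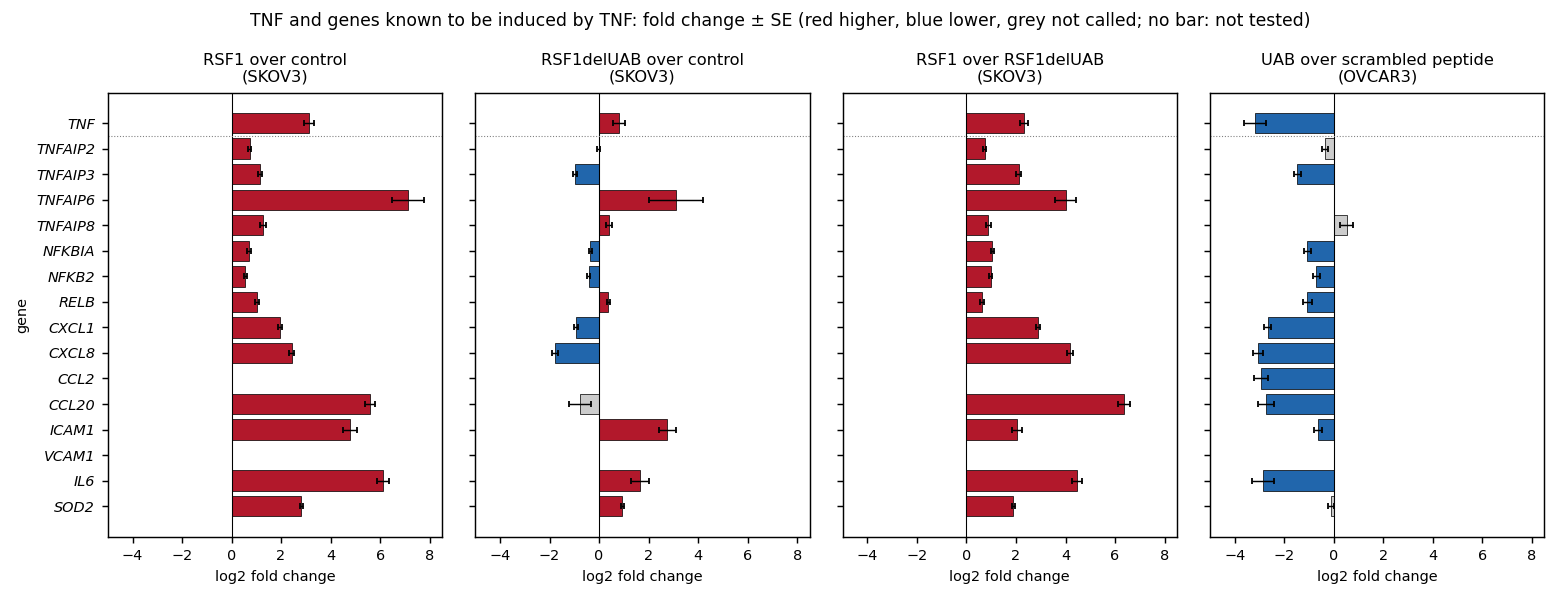
Log2 fold change ± SE of TNF (top row) and 15 genes known to be induced by TNF, in 4 comparisons; red is called higher, blue called lower, grey not called, and a gene with no bar was too low to test. All 13 tested genes lay to the right in RSF1 against control and RSF1 against RSF1delUAB cells, and 10 of 13 were called lower with the UAB peptide; the fitted bars of TNFAIP6 over control rest on 1 control count.

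Shares of all genes called were 67.3% for RSF1 over control, 66.6% for RSF1delUAB over control, 38.6% for RSF1 over RSF1delUAB and 10.9% in OVCAR3. Of 15 other TNF family ligands, 6 could be tested in SKOV3 and 7 in OVCAR3. In RSF1 against control cells 2 rose, 2 fell and 2 were not called (median log2 fold change -0.23, all genes 0.02), and RSF1delUAB against control cells gave equal counts (median -0.07). In the RSF1delUAB comparison 1 fell without the third RSF1delUAB or the third control library or with total count scaling, and 4 fell with no filter on low counts. TNFSF12 (TWEAK), the ligand of TNFRSF12A, whose exons are also part of a read-through gene with TNFSF13, had 224 counts with RSF1 and 180 with RSF1delUAB, against 0 counts in the controls. With a floor of 3 counts over the control group, it was at least 72.5-fold higher with RSF1 and at least 52.3-fold higher with RSF1delUAB. TNFSF14 (LIGHT), which binds TNFRSF14, rose by 4.69 log2 units with RSF1 (adjusted p = 1.56e-08) and by 3.01 with RSF1delUAB (adjusted p = 4.83e-05). The costimulatory ligand TNFSF9, which binds TNFRSF9, measured 61.4, 53.7 and 54.7 CPM with RSF1, 81.5, 71.4 and 78.5 CPM with RSF1delUAB, and 138, 141 and 128 CPM in controls.

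TNFSF9 fell by 1.26 log2 units with RSF1 (adjusted p = 1.18e-11) and by 0.82 with RSF1delUAB (adjusted p = 6.41e-09). CD70, the ligand of CD27, fell by 0.81 log2 units with RSF1 (adjusted p = 1.82e-09) and by 0.17 with RSF1delUAB (adjusted p = 0.0286). With RSF1 over RSF1delUAB, 1 rose, 2 fell and 3 were not called (median log2 fold change 0.14), with TNFSF14 at 1.68 (adjusted p = 0.000174), CD70 at -0.63 and TNFSF9 at -0.45. The count that rose became 2 with any RSF1 or RSF1delUAB library left out except the second RSF1 library. In OVCAR3 1 rose, 3 fell and 3 were not called (median log2 fold change -0.96, all genes 0.01). The fallers were TNFSF14 (log2 fold change -2.58, adjusted p = 0.000618), CD70 (-1.60, adjusted p = 0.00288) and TNFSF9 (-0.96, adjusted p = 0.0065). EDA, which acts in skin appendages, rose on 33 counts with the UAB peptide against 1 count with the scrambled peptide, a ratio of 39.7 with a counting interval of 6.64 to 1613 (edgeR adjusted p = 0.005). With DESeq2 or a minimum count of 30, 0 ligands were called higher in OVCAR3.

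The other receptors stand beside the same shares of all genes called (67.3%, 66.6%, 38.6% and 10.9%, in the order given for the ligands). Of 22 other receptors of the superfamily, 12 could be tested in SKOV3 and 15 in OVCAR3. In RSF1 against control cells 4 rose, 5 fell and 3 were not called (median log2 fold change 0.03), and in RSF1delUAB against control cells 5 rose and 7 fell (median -0.35). At a minimum count of 30, 2 rose in each of these comparisons. The TRAIL decoy TNFRSF10D, which lacks a working death domain, measured 29.0, 29.4 and 29.9 CPM with RSF1, 24.9, 28.8 and 29.1 CPM with RSF1delUAB, and 154, 160 and 154 CPM in controls. It fell by 2.40 log2 units with RSF1 (adjusted p = 4.81e-16) and by 2.50 with RSF1delUAB (adjusted p = 2.58e-16). The other decoy, TNFRSF10C, was rare and rose by 3.87 log2 units with RSF1 (adjusted p = 3.19e-07) and by 3.56 with RSF1delUAB (adjusted p = 1.4e-06).

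CD40, the receptor of CD40 ligand, measured 57.9, 53.2 and 54.2 CPM with RSF1, 35.5, 32.5 and 36.3 CPM with RSF1delUAB, and 13.5, 11.5 and 14.7 CPM in controls, in 3 groups that did not overlap. The log2 fold change over control was 2.06 with RSF1 (adjusted p = 2.07e-13) and 1.39 with RSF1delUAB (adjusted p = 1.13e-10). TNFRSF12A, the TWEAK receptor, fell by 1.35 log2 units with RSF1 (adjusted p = 3.33e-11) and by 1.57 with RSF1delUAB (adjusted p = 3.59e-12). Between RSF1 and RSF1delUAB 4 rose, 1 fell and 7 were not called (median log2 fold change 0.23), led by TNFRSF11A (RANK), the receptor of RANKL, at 1.62 (adjusted p = 1.79e-09). Here 2 rose without the third RSF1delUAB library, and 2 fell without the third RSF1 library. In OVCAR3 1 rose, 3 fell and 11 were not called (median log2 fold change -0.32), with TNFRSF12A at -1.11 (adjusted p = 0.000226) and NGFR at -2.26 (adjusted p = 0.000624), and 0 rose without the first UAB library. TNFRSF10D measured 29.1 and 27.0 CPM with the UAB peptide, against 18.9 and 23.2 CPM with the scrambled peptide, and was not called (log2 fold change 0.41, adjusted p = 0.114).

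For the death signalling list, the shares of all genes called are again 67.3%, 66.6%, 38.6% and 10.9%, in the order given for the ligands. Of 15 components of the death signalling complex and caspases, 14 were tested in each line. In RSF1 against control cells 5 rose, 5 fell and 4 were not called (median log2 fold change -0.0025), and in RSF1delUAB against control cells 4 rose, 6 fell and 4 were not called (median -0.08). The adaptor TRADD rose by 1.08 log2 units with RSF1 (adjusted p = 2.02e-08) and by 1.01 with RSF1delUAB (adjusted p = 5.33e-08), and the adaptor FADD rose by 0.89 with RSF1 (adjusted p = 1.54e-06). BID, which carries the death signal to mitochondria, rose by 0.96 log2 units with RSF1 (adjusted p = 8.17e-07). The kinase RIPK1 fell by 1.22 log2 units with RSF1 (adjusted p = 8.25e-12) and by 0.91 with RSF1delUAB (adjusted p = 5.78e-10), and the caspase inhibitor XIAP by 0.91 with RSF1 (adjusted p = 2.75e-10). CASP8, the initiator caspase of these receptors, measured 62.1, 65.4 and 56.9 CPM with RSF1, 49.9, 52.8 and 50.8 CPM with RSF1delUAB, and 58.0, 56.6 and 61.3 CPM in controls. With RSF1 over RSF1delUAB, 6 rose, 4 fell and 4 were not called (median log2 fold change 0.14), and 2 fell without the second RSF1 or the first RSF1delUAB library. In OVCAR3 none rose, 2 fell and 12 were not called (median log2 fold change -0.06), the fallers being MLKL, the effector of necroptosis (-1.20, adjusted p = 0.0245), and BID (-0.50, adjusted p = 0.0407). The count that fell became 0 without the first UAB library or the first scrambled library, and 1 with total count scaling or the replicate block. In OVCAR3 no component was higher by DESeq2 or limma, or at an unadjusted p under 0.05.

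Counts of adaptors stand beside the same shares of all genes called (67.3%, 66.6%, 38.6% and 10.9%, in the order given for the ligands). All 22 TRAF and ubiquitin adaptors were tested. In RSF1 against control cells 7 rose, 10 fell and 5 were not called (median log2 fold change -0.11), in RSF1delUAB against control cells 6 rose, 12 fell and 4 were not called (median -0.25), and between RSF1 and RSF1delUAB 8 rose, 5 fell and 9 were not called (median -0.04). Beyond 1.5-fold, 4 rose and 4 fell with RSF1 over control, and 1 rose and 4 fell with RSF1delUAB over control. BIRC3 (cIAP2), a ubiquitin ligase of the TNF receptor complex, measured 45.3, 50.5 and 48.6 CPM with RSF1, 9.87, 8.88 and 7.99 CPM with RSF1delUAB, and 12.1, 11.3 and 9.42 CPM in controls. RSF1 cells alone were high, and BIRC3 exceeded control by 2.14 log2 units (adjusted p = 6.55e-13) and RSF1delUAB by 2.43 (adjusted p = 5.43e-13). TNFAIP3, which also stands in the list of TNF-induced genes, was at 78.8, 80.2 and 81.3 CPM with RSF1, 18.2, 16.9 and 21.0 CPM with RSF1delUAB, and 35.6, 37.0 and 37.2 CPM in controls. MAP3K14 (NIK), the kinase of the alternative NF-kappaB route, fell by 1.25 log2 units with RSF1 over control (adjusted p = 1.62e-11). In OVCAR3 none rose, 4 fell and 18 were not called (median log2 fold change -0.03), and the fallers included TNFAIP3 at -1.47 (adjusted p = 2.13e-05) and BIRC3 at -1.77 (adjusted p = 0.00316). At an unadjusted p under 0.05, 3 of these adaptors were higher with the UAB peptide, and DESeq2 and limma called 0. Without the first scrambled library 1 adaptor was called higher, and without the second scrambled library 2.

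Of 7 genes that release TNF or its receptors from the cell surface or regulate that step, 6 rose in RSF1 against control cells (median log2 fold change 0.48) and 6 in RSF1delUAB against control cells (median 0.39), and none fell by edgeR, DESeq2 or limma, or at an unadjusted p under 0.05. Over all genes, 34.3% and 34.5% were called higher in these comparisons. Beyond 1.5-fold, 2 of the 7 rose in each comparison. TIMP3, the inhibitor of ADAM17, had 509 counts with RSF1 and 718 with RSF1delUAB, against 0 counts in controls, and was at least 164.9-fold and at least 208.7-fold higher than a floor of 3 counts over the control group. ADAM17, the protease that sheds TNF, rose by 0.46 log2 units with RSF1 (adjusted p = 2.13e-05), and ADAM10, a related sheddase, by 0.87 (adjusted p = 2.39e-10). TIMP3 and ADAM17 have opposite known actions, so the list holds genes of both directions of the step. Between RSF1 and RSF1delUAB 3 rose, 2 fell and 2 were not called (median log2 fold change 0.06), beside 38.6% of all genes called. The count that rose became 1 without the third RSF1 library, and the count that fell became 1 with any RSF1 or RSF1delUAB library left out except the second RSF1 library, with the replicate block and with DESeq2. In OVCAR3 none of the 7 was called (median log2 fold change -0.07), beside 10.9% of all genes called. At an unadjusted p under 0.05, 1 was higher and 2 lower in OVCAR3, and DESeq2 called 1 lower and limma 0. Without the first UAB library or the second scrambled library 1 was called lower.

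The position of the genes was also looked at, as the median log2 fold change of all tested genes that start within 5 Mb. Around TNF on chromosome 6 it was 0.46 for RSF1 and 0.44 for RSF1delUAB over control (208 genes), against 3.14 and 0.82 for TNF itself. Around TNFRSF21, also on chromosome 6, it was 0.41 and 0.45 (63 genes), so that the 0.48 of TNFRSF21 in RSF1delUAB cells lay near its neighbours. Around FAS on chromosome 10 it was -0.27 and -0.32 (56 genes), and around TNFSF10 on chromosome 3 it was 0.14 and 0.50 (32 genes). Every called gene lay beyond its neighbours' median in its own direction in the 4 comparisons. Within 2 Mb, TNFRSF21 in RSF1delUAB against control cells was the exception, with a median of 0.77 over 10 genes.

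As a description of likeness, Pearson's r of log2 CPM was taken over the 9 SKOV3 libraries between each gene and 10284 others. These libraries share their 3 groups, so many genes reach a high r. The genes most like TNF were TRIB3 (r = 0.99), IL6 (r = 0.99) and P4HA2 (r = 0.99), out of 96 with an r over 0.95. Those most like TNFRSF11B were the chemokine CXCL2, SEC22B and NIFK, and those most like TNFSF15 were ZNF841, PTPRJ and WWC1. For TNFSF10 they were MAGED2, ANXA6 and C1S, out of 1036 with an r over 0.95, and for FAS they were ZBTB7C, TMBIM4 and ZMYM2, out of 635. For TNFRSF9 they were ARF6, ATP1B1 and SNX8, and for TNFRSF21 they were GRB10, SETD3 and DYRK2. For TNFRSF1A they were COASY, DALRD3 and LDB1, for TNFRSF10A INTS7, ARIH2 and NKTR, and for TNFRSF10B DENND1B, LRBA and ZNF236.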

How the data were processed

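The deposited tables hold whole-number counts per gene, made by the authors. The submitters' processing notes name FastQC, STAR 2.7.9a and Subread without saying which made the counts, and the builds GRCh38, hg38 and GRCm38; strand use is not given in the sources used here. Per the labels' protocols, poly-A RNA was converted with random hexamers. The 2 tables (SKOV3, 9 libraries; OVCAR3, 4 libraries) were analysed apart. Records split over lines in each table were rejoined (2 lines per table). In 1 column name of the OVCAR3 scramble group a letter is unexplained, and it was read as replicate 2.

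Genes with low counts were filtered with filterByExpr (minimum count 10), leaving 16735 genes in SKOV3 and 18359 in OVCAR3. Libraries were scaled by TMM, and all groups of a line were fitted together with the edgeR 4.0.16 quasi-likelihood test in R 4.3.3. The residual degrees of freedom were 6 in SKOV3 and 2 in OVCAR3. A call is a p under 0.05 after Benjamini-Hochberg adjustment across every gene tested in that line. CPM values are TMM-scaled, RPKM divides them by the summed exon length in the deposited tables, and the SE is that implied by the F statistic. Alternatives used other scalings and filters, DESeq2 1.42.0, limma 3.58.1, a test against a fold of 1.5, a replicate block and each library left out. All 10 genes passed the filter in both lines. They and the lists were chosen with earlier results of these data known, and lists are given by counts with no test. In each list, at most 3 genes per direction and comparison were named by smallest adjusted p, other values in the text being those genes in the remaining groups; CASP8, TNFAIP6 and, in OVCAR3, TNFRSF10D were added after their values were seen, and 1 gene that the rule names is not reported here. After the group mean of each gene was subtracted, same-numbered libraries of different groups correlated at -0.04 to 0.07 in SKOV3 and -0.15 in OVCAR3. With 2 libraries a group, the OVCAR3 values are equal by construction. The main fit took the libraries as unpaired, and whether the numbers pair them is not settled.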

Additional observations from a re-analysis of the deposited data

Results flagged for a closer look

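TNFRSF11B was called higher with RSF1 and lower with RSF1delUAB against the same 3 control libraries. RSF1 over RSF1delUAB gave a log2 fold change of 1.61 (edgeR adjusted p = 6.7e-09). A call in this comparison was part of the rule for flagging, so it adds no separate support. The fall with RSF1delUAB over control was not called in the edgeR test against a fold of 1.5 (adjusted p = 0.89). All 3 RSF1 libraries lay above, and all 3 RSF1delUAB libraries below, every control.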

How the results depend on the processing

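Testing against a fold of 1.5 lowered most counts. In RSF1 against control cells it left 3077 genes higher and 2278 lower, 2 members lower and 12 listed pathway genes lower. In RSF1delUAB against control cells it left 3009 higher and 2179 lower, 1 member higher and 3 lower, and 17 listed genes higher and 14 lower. Between RSF1 and RSF1delUAB it left 639 higher and 705 lower, 0 members lower, and 15 listed genes higher and 1 lower. In OVCAR3 it left 266 higher and 289 lower, 0 members higher, and 1 listed gene higher and 13 lower. The 2 listed genes called higher in OVCAR3 became 1 with DESeq2 and with a minimum count of 30. With each OVCAR3 library left out, listed genes called higher ranged between 1 and 4, members called higher between 0 and 1 and all genes called higher between 633 and 1194; a group then had 1 library, assumed to vary like the others. Small differences changed sign with 1 library left out. Between RSF1 and RSF1delUAB, TNFRSF10B ranged between -0.11 and 0.0012 on the log2 scale, above 0 without RSF1 replicate 1. In OVCAR3, RSF1 ranged between -0.11 and 0.31 (below 0 without UAB replicate 1 or scramble replicate 1, the value without scramble replicate 1 being -0.04), TNFSF15 between -0.073 and 0.44 and TNFRSF1A between -0.042 and 0.17 (both below 0 without UAB replicate 2), and TNFRSF10B between -0.0082 and 0.13 (below 0 without scramble replicate 1). At a minimum count of 30, TNFSF15 in SKOV3 and TNFRSF9 and TNFRSF11B in OVCAR3 were not tested, nor was TNFSF15 in RSF1delUAB against control cells when only those groups were fitted. A replicate block changed no call of a member. With it, 4 were higher and 4 lower for RSF1 over control, and 3 and 5 for RSF1delUAB over control. For RSF1 over RSF1delUAB 4 were higher and 2 lower, and in OVCAR3 1 and 3. The block moved the calls over all genes to at most 5687 in a direction in SKOV3, and to 928 higher and 842 lower in OVCAR3. With group means subtracted, libraries correlated best with their own number in 4 of 6 between RSF1 and RSF1delUAB and in 0 elsewhere. A pairing of OVCAR3 with the numbers crossed, chosen after seeing the data, gave 2560 genes higher and 2537 lower, and 9 listed genes higher and 33 lower. OVCAR3 has 2 libraries a group, and TNF and TNFRSF9 were under 1 CPM in both UAB libraries, so their values there rest on few reads.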
